A study of Mus musculus with 2 samples.

Results

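Small nucleolar RNA host genes are non-coding genes whose introns carry small nucleolar RNAs (snoRNAs). Of the 7 genes listed here by symbol (Snhg1, Snhg3, Snhg5, Snhg6, Snhg8, Snhg12 and Gas5), 2 had a row among the 31053 genes of the count matrices, namely Snhg6 and Snhg12. The other 5 were not analysed here. The names were listed with UMI values of these libraries in view, so every value below is a description and none is a test. The cells were LSK cells, the bone marrow fraction that lacks lineage markers and carries Sca1 and c-Kit, sorted by flow cytometry from C57BL/6J mice aged 6-8 weeks. The control library came from mice without irradiation, and the irradiated library from mice taken at day 15 after 5.0 Gy given to the whole body. There was 1 library per group, the number of animals in each was not stated, and treatment and library preparation cannot be told apart.

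When a host gene is transcribed, splicing releases its introns, and the snoRNAs are trimmed out of them and packed into particles with a fixed set of proteins. Box C/D snoRNAs guide ribose methylation of ribosomal RNA and box H/ACA snoRNAs guide pseudouridylation, both in the nucleolus. The spliced host RNA is polyadenylated, usually encodes no protein and in many hosts is removed by nonsense-mediated decay. Many hosts begin with a run of pyrimidines, the 5′ TOP element, which ribosomal protein genes share and which ties translation to mTOR signalling. The 3′ assay used here counts the spliced, polyadenylated host RNA, so the values give no level of the snoRNAs, and no row of the matrices was named for one.

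Snhg6 (ENSMUSG00000098234) lies on the minus strand at chr1:9941959-9944118 and Snhg12 (ENSMUSG00000086290) on the plus strand at chr4:132308623-132311024, in the GENCODE M21 annotation of GRCm38, the build named mm10 by the submitters. Both are annotated as long intergenic non-coding RNAs, with 5 transcripts for Snhg6 and 10 for Snhg12. Snhg6 holds 1 snoRNA, Snord87, which no exon of its transcripts overlaps. Snhg12 holds Snora16a, Snora44, Snora61 and Snord99. Exons of 2, 2, 5 and 3 of the 10 Snhg12 transcripts, in that order, run over them as retained introns. To show what each gene carries, its box C/D snoRNA and an H/ACA snoRNA of Snhg12 are printed 5′ to 3′ as DNA from the GENCODE transcripts. Capitals mark box C (TGATGA) and box D (CTGA) of the C/D snoRNAs and the ACA near the end of the H/ACA snoRNA. TGATGA stands in 75.5% of the 98 annotated Snord sequences, CTGA in all 98, and ACA within the last 10 bases in 95.2% of the 42 Snora sequences.
Snord87 (in Snhg6, chr1:9942463-9942549, minus strand): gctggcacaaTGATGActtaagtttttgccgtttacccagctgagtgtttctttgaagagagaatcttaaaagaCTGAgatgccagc
Snord99 (in Snhg12, chr4:132310691-132310764, plus strand): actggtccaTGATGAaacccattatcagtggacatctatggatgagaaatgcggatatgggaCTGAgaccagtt
Snora61 (in Snhg12, chr4:132310240-132310369, plus strand): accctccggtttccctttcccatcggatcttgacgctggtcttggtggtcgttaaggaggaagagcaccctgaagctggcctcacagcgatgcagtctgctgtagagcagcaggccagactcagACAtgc

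The ends of 1 spliced transcript of each host are shown because the start holds the pyrimidine run and the 3′ end is the part the assay captures. The Snhg6 transcript (ENSMUST00000182580) has 4 exons and 473 bases, and the Snhg12 transcript (ENSMUST00000153474) has 5 exons and 606 bases. Capitals mark TTTCTCG at the start and the polyadenylation signal AATAAA at the end.
Snhg6, first 60 bases: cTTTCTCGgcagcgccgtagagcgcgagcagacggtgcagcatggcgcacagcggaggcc
Snhg12, first 60 bases: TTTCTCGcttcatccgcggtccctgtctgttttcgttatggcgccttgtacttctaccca
Snhg6, last 60 bases: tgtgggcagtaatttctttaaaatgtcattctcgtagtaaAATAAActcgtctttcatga
Snhg12, last 60 bases: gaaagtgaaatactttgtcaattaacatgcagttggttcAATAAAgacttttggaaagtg
Both starts hold the same 7 letters, TTTCTCG, within the first 10 bases on the sense strand. Among 88298 annotated coding and long non-coding transcripts 18 did so, or 0.0204%, these transcripts included. The letters and the transcript shown for each host were set by hand, so this share is no test of a shared start. In promoter windows of 300 bases from RefSeq (GRCm38.p6), the 7 letters stood on either strand in 1.62% of 32851. AATAAA stood in the last 60 bases of 35.4% of 88260 annotated transcripts. The last 127 bases of Snhg6 overlap the end of Mcmdc2, a gene with an MCM helicase domain on the opposite strand. Whether counting used strand was not given in the sources used here, so reads from that stretch cannot be assigned to either gene with certainty.

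Filtering left 7188 cells of the control library and 5112 of the irradiated one. They held 138080503 and 162748209 UMIs (unique molecular identifiers, each standing for 1 captured molecule). The irradiated cells had more UMIs, with a median of 29615 per cell against 16084 in the control. Of the barcodes, 16 occurred in both libraries. Kit and Ly6a, the genes of the sorted surface proteins c-Kit and Sca1, stood at 132 and 156 CPM in the control and at 73.5 and 218 CPM in the irradiated library. CPM is the gene's UMIs per 1000000 UMIs of the library. The summed CPM of 9 neutrophil-primed markers was 1555 in the control and 6563 in the irradiated library, and that of 8 stem cell markers was 228 and 81.2. The 6 macrophage markers summed to 3.58 and 4.57 CPM and the 6 endothelial and stromal markers to 45.1 and 36.6 CPM, with none at 0. Other lineage lists had larger sums. The 7 mature neutrophil markers had 347 and 67.3 CPM, opposite in direction to the neutrophil-primed markers. T/NK markers had 207 and 321 CPM, B lineage markers 153 and 58.9, and mast cell and basophil markers 85.2 and 80.9.

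Over all cells, the hosts differed between the libraries in opposite directions. Snhg6 had 14465 UMIs in the control library and 20867 in the irradiated one, or 105 and 128 CPM, a level 1.22-fold higher in irradiated cells. Its log2 ratio of irradiated over control was 0.29, with an exact 95% interval from 0.26 to 0.32. Snhg12 had 13395 and 9311 UMIs, or 97.0 and 57.2 CPM, a level 1.696-fold lower in irradiated cells, with a log2 ratio of -0.76 (-0.80 to -0.72). A gene was counted as higher or lower at a CPM ratio of at least 1.2. By that rule 1 of the 2 hosts was higher, beside 21.1% of the 9032 genes at a mean of at least 5 CPM. The other was lower, beside 32.3% of those genes. The median log2 ratio of all 9032 genes was -0.06. Snhg6 stood above 80.9% of them and Snhg12 above 8.60%. All intervals cover counting error only.

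The sum of both hosts hid this divergence, since their difference in opposite directions left a log2 ratio of -0.12 (-0.15 to -0.10). The values did not rest on a few cells. The 10 cells with the most UMIs held 0.913% and 0.958% of the Snhg6 UMIs and 0.956% and 2.20% of the Snhg12 UMIs in control and irradiated libraries. Among cells with 15000 to 25000 UMIs in each library, the log2 ratio was 0.36 for Snhg6, -0.46 for Snhg12 and 0.029 for their sum, which turned its direction. Thinned to 5000 UMIs per cell, Snhg6 had a log2 ratio of 0.25, just under 1.2-fold.

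Cells were grouped by clustering and named from marker lists, with "-like" for a class that rests on such markers. The haematopoietic stem cell (HSC)-like class was led by Hlf and Procr. The lymphoid-primed-like class joined clusters 3, 5 and 7, which had Dntt among their leading genes, and the first 2 were led by Wfdc17. The others were the megakaryocyte-primed-like class with Pf4 and Itga2b, the erythroid-primed-like class with Car1 and Klf1, and the neutrophil-primed-like class with Elane and Mpo. Ly6c2 and F13a1, from the monocyte and dendritic marker list, were also among the leading genes of the neutrophil-primed-like class. Cluster 0, led by histone genes such as Hist1h2ap, with the mitotic genes Top2a and Mki67 among its leading genes, stayed unnamed. So did cluster 1, led by the replication genes Hells and Mcm3. Cluster 11 was led by Cd74 and class II histocompatibility genes, which belong to differentiated dendritic cells, and is called by those genes. In 4 classes each library held at least 100 cells, and these held 63.9% of control and 45.1% of irradiated cells.

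In the HSC-like class the level of Snhg6 was 88.6 CPM over 1478 control cells and 147 CPM over 246 irradiated cells (log2 ratio 0.73, 0.58 to 0.88). In the lymphoid-primed-like class it stood at 115 and 160 CPM, with a log2 ratio of 0.47 (0.39 to 0.56). Most control cells of that class came from cluster 3 (1530 of 2754), and cluster 7 was the largest part in the irradiated library (220 of 465). Snhg6 was also higher in irradiated megakaryocyte-primed-like cells, at 86.4 and 111 CPM (log2 ratio 0.36, 0.21 to 0.52). Neutrophil-primed-like cells, 111 in the control and 1080 in the irradiated library, had 92.3 and 128 CPM of Snhg6 (log2 ratio 0.47, 0.33 to 0.61). Snhg6 was past 1.2-fold in each of the 4 classes, where 15.1%, 13.1%, 12.6% and 12.6% of all genes tested were that much higher, in the order given. In megakaryocyte-primed-like cells thinned to 5000 UMIs the log2 ratio was 0.06, and in lymphoid-primed-like cells it was 0.20 with each cell named by its own markers, both within 1.2-fold.

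HSC-like cells had 130 CPM of Snhg12 in the control and 114 CPM in the irradiated library (log2 ratio -0.19, -0.35 to -0.03). In lymphoid-primed-like cells it stood at 115 and 84.6 CPM (log2 ratio -0.44, -0.55 to -0.33). Megakaryocyte-primed-like cells had 70.5 and 47.4 CPM (log2 ratio -0.57, -0.76 to -0.38). In neutrophil-primed-like cells Snhg12 was low in both libraries, at 49.9 CPM (227 UMIs in 111 cells) and 43.2 CPM (2108 UMIs in 1080 cells). Its log2 ratio was -0.21 (-0.41 to -0.0036). With each cell weighted equally this last ratio was 0.02. Snhg12 was past 1.2-fold in the lymphoid-primed-like and megakaryocyte-primed-like classes, where 22.9% and 26.7% of all genes tested were that much lower, and within it in the HSC-like and neutrophil-primed-like classes, where 19.5% and 16.2% were. The side of 1.2-fold in those 2 classes depended on the processing. In HSC-like cells the log2 ratio was -0.32 with all barcodes, -0.27 with cells thinned to 5000 UMIs and -0.52 with each cell named by its own markers, all past 1.2-fold. In neutrophil-primed-like cells it was past 1.2-fold with 30 neighbours drawn from all cells (-0.42) and with each cell named by its own markers (-0.47).

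**Figure D1:**
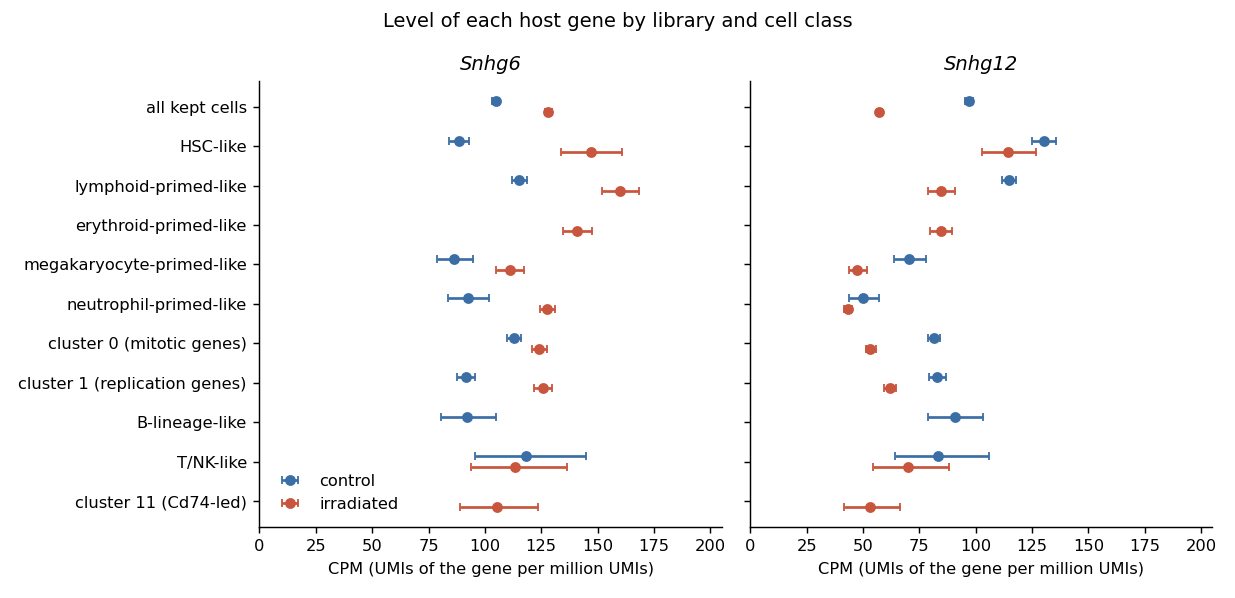
CPM of Snhg6 (left) and Snhg12 (right) in each cell class of the control (blue) and irradiated (red) library. Points are the level over the summed UMIs of the class, bars are exact 95% Poisson intervals for counting error, and classes with under 50 cells in a library are left out. Irradiated Snhg6 lies to the right of the control except in T/NK-like cells, and Snhg12 ranges from 130 CPM in control HSC-like to 43.2 CPM in irradiated neutrophil-primed-like cells.

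The cycling clusters outside the named classes had the same directions. In cluster 0 Snhg6 stood at 113 and 124 CPM (log2 ratio 0.14) and Snhg12 at 81.4 and 53.3 CPM (log2 ratio -0.61), where 14.7% of genes were at least 1.2-fold higher and 26.6% lower. In cluster 1 Snhg6 stood at 91.6 and 126 CPM (log2 ratio 0.46) and Snhg12 at 82.9 and 61.8 CPM (log2 ratio -0.42), where 13.3% were higher and 21.8% lower. Of these values only Snhg6 in cluster 0 was within 1.2-fold. The T/NK-like class had 53 and 63 cells, and both intervals included 0 there, with log2 ratios of -0.06 (-0.47 to 0.35) for Snhg6 and -0.25 (-0.76 to 0.26) for Snhg12. A difference in those cells was not detectable at this depth.

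**Figure D2:**
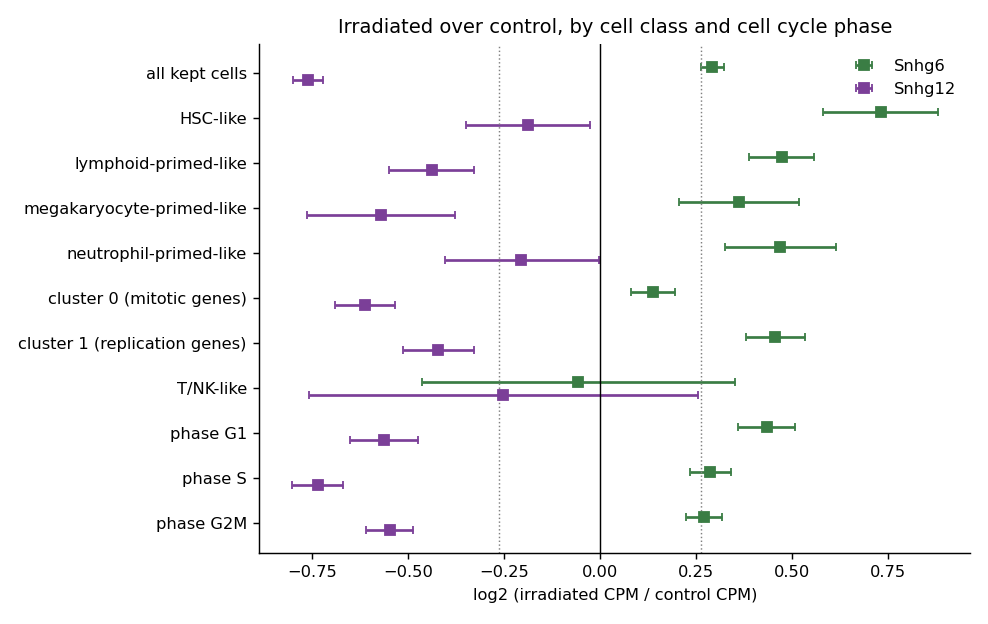
log2 ratio of irradiated over control CPM for Snhg6 (green) and Snhg12 (purple) over all kept cells, by class and by cell cycle phase. Bars are exact 95% intervals for counting error, the solid line marks equal levels and the dotted lines mark 1.2-fold. Snhg6 lies between 0.14 and 0.73 and Snhg12 between -0.76 and -0.19 in all rows but T/NK-like, where both intervals include 0.

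The hosts also differed in how much their level varied over classes. Snhg12 spanned 2.61-fold from its lowest to its highest class in the control and 2.65-fold in the irradiated library. Snhg6 spanned 1.37-fold and 1.52-fold. Among the classes Snhg12 was highest in HSC-like cells in both libraries, at 130 and 114 CPM, with no overlap with the next class. By cluster it was not apart, since cluster 5 of the lymphoid-primed-like class had 135 and 109 CPM, with intervals that overlapped those of HSC-like cells. In the control, lymphoid-primed-like cells followed at 115 CPM, again apart from the next. B-lineage-like cells at 90.6, T/NK-like cells at 83.0, cluster 1 at 82.9 and cluster 0 at 81.4 CPM overlapped in their intervals from neighbour to neighbour. Megakaryocyte-primed-like and neutrophil-primed-like cells came last, each apart from the class before.

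In the irradiated library the order of Snhg12 was alike in its ends. After HSC-like cells came erythroid-primed-like and lymphoid-primed-like cells, both at 84.6 CPM, T/NK-like cells at 69.7 and cluster 1 at 61.8 CPM. Cluster 0 at 53.3, the Cd74-led cluster 11 at 53.0, megakaryocyte-primed-like cells at 47.4 and neutrophil-primed-like cells at 43.2 CPM followed with overlapping neighbours. The order of Snhg6 was not the same in both libraries. HSC-like cells were second lowest for Snhg6 in the control at 88.6 CPM and second highest in the irradiated library at 147 CPM. The intervals overlapped from neighbour to neighbour over the 5 lowest classes of the control and over the 3 highest of the irradiated library. The lymphoid-primed-like class was at or near the top in both, at 115 and 160 CPM, and erythroid-primed-like cells of the irradiated library had 141 CPM.

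Because the hosts were counted in the same cells, the number of Snhg12 UMIs per Snhg6 UMI does not depend on library totals. Only its difference between cells is read here, since capture may differ between the RNAs. Over all cells it was 0.926 (0.904 to 0.948) in the control and 0.446 (0.435 to 0.457) in the irradiated library. HSC-like cells had 1.47 and 0.778, lymphoid-primed-like cells 0.994 and 0.529, megakaryocyte-primed-like cells 0.815 and 0.427, and neutrophil-primed-like cells 0.540 and 0.338. In each of these 4 classes the intervals of the libraries did not overlap. T/NK-like cells had 0.702 (0.505 to 0.972) and 0.614 (0.449 to 0.834), which overlapped.

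**Figure D3:**
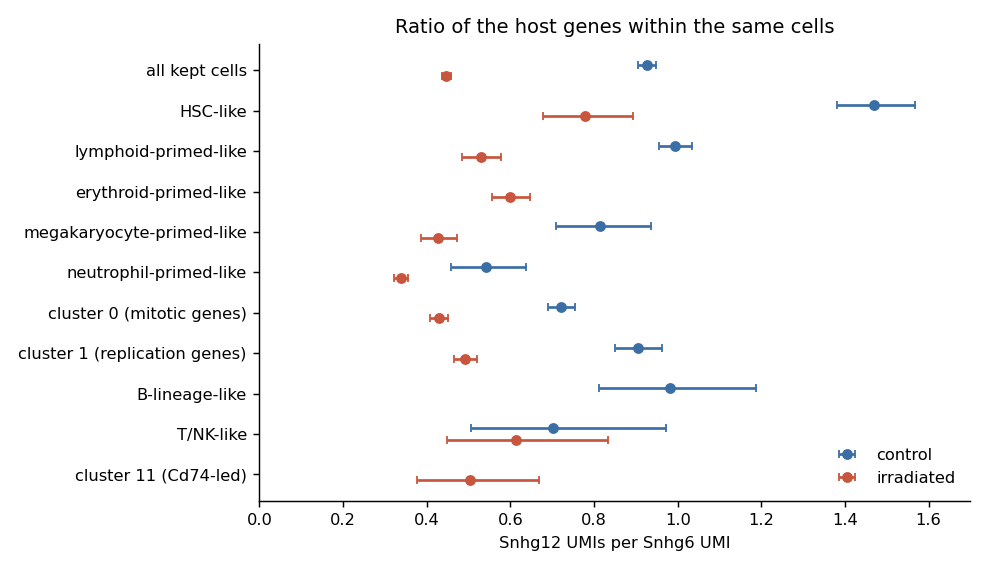
Snhg12 UMIs per Snhg6 UMI by cell class in the control (blue) and irradiated (red) library, with exact 95% intervals for counting error. In both libraries HSC-like cells had the highest value (1.47 and 0.778) and neutrophil-primed-like cells the lowest (0.540 and 0.338), and the irradiated value was below the control value in every class shown for both.

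The share of cells in each class differed widely between the libraries. HSC-like cells made up 20.6% of the control and 4.81% of the irradiated library, and neutrophil-primed-like cells 1.54% and 21.1%. Over the 4 compared classes, each library at its own mix, the log2 ratio was 0.31 for Snhg6 and -1.09 for Snhg12. With the classes held at the control mix it was 0.53 for Snhg6, at 105 and 151 CPM, and -0.36 for Snhg12, at 111 and 86.8 CPM. Held at the control mix, the sum of both hosts had a log2 ratio of 0.14 (0.10 to 0.17). It was -0.046 with each cell named by its own markers, where 6 classes were compared. With clusters 0 and 1 entered as classes, a choice made after seeing the data, the values at the control mix were 0.40 for Snhg6, -0.43 for Snhg12 and 0.061 for the sum. The sign of each host was the same at either mix, the ratio of Snhg6 was larger at the fixed mix and that of Snhg12 was nearer to 0.

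Cell cycle phase was called on cells thinned to 5000 UMIs. G1 held 3239 of 7122 control cells and 905 of 5053 irradiated cells. Before thinning, G1 cells were the shallowest, with a median of 11885 UMIs in the control and 15577 in the irradiated library. S phase cells had 19958 and 30353 UMIs and G2/M cells 26254.5 and 36330. The levels by phase are from counts before thinning. Snhg12 was highest in G1, at 126 CPM in the control and 85.4 CPM in the irradiated library. It stood at 88.3 and 53.0 CPM in S phase and at 80.7 and 55.2 CPM in G2/M. Snhg6 was lowest in S phase in both libraries, at 96.5 and 118 CPM, with 109 and 147 CPM in G1 and 109 and 132 CPM in G2/M. Within each phase the libraries differed as over all cells, with log2 ratios of 0.43, 0.29 and 0.27 for Snhg6 and of -0.56, -0.74 and -0.55 for Snhg12 in G1, S and G2/M. In G1 cells of the HSC-like class alone, Snhg6 stood at 90.8 and 150 CPM and Snhg12 at 136 and 117 CPM. In G1 cells of the lymphoid-primed-like class, Snhg6 stood at 121 and 172 CPM and Snhg12 at 125 and 97.4 CPM.

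Snhg12 also varied with cell depth and Snhg6 did not to a like degree. Cells of each library were split by their UMIs into 3 equal groups. From the shallowest to the deepest group of control cells, Snhg12 stood at 134, 104 and 81.4 CPM, and in irradiated cells at 77.0, 56.1 and 51.8 CPM. Snhg6 stood at 103, 105 and 105 CPM in the control and at 133, 125 and 129 CPM in the irradiated library. The middle group of the control and the shallowest group of the irradiated library had nearly the same median depth, 16084 and 16201 UMIs. There Snhg12 stood at 104 and 77.0 CPM and Snhg6 at 105 and 133 CPM. Depth differs between the classes too, from a median of 11323 UMIs in control HSC-like to 44791 in irradiated neutrophil-primed-like cells. It also differs between the phases, and its part in the class and phase values was not tested.

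**Figure D4:**
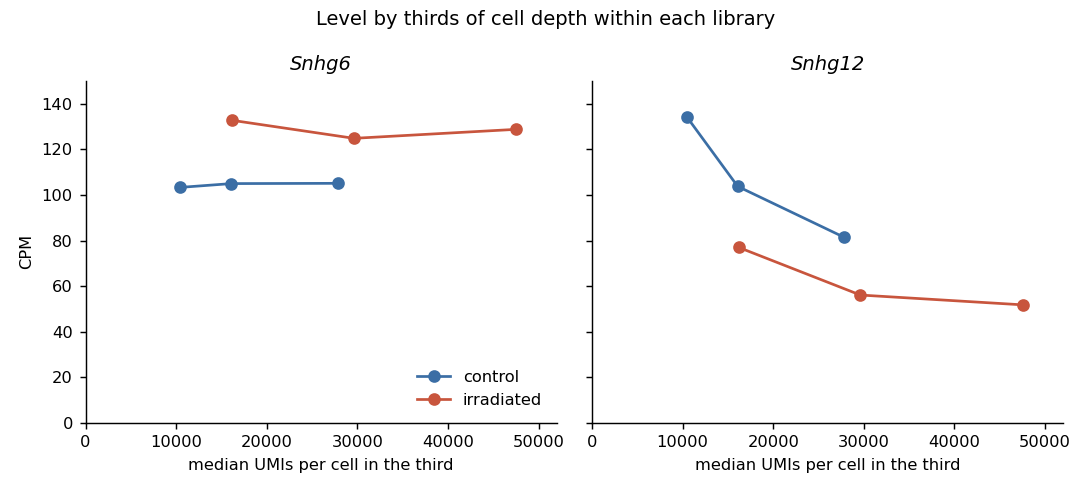
CPM of Snhg6 (left) and Snhg12 (right) in 3 equal groups of cells by UMIs per cell, against the median UMIs of each group, for the control (blue) and irradiated (red) library. Points hold the summed UMIs of a group and no interval is drawn. Snhg12 goes from 134 to 81.4 CPM in the control and from 77.0 to 51.8 CPM in the irradiated library, while Snhg6 stays between 103 and 105 and between 125 and 133 CPM.

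Several genes for proteins that turn intron-borne snoRNAs into working particles were at least 1.2-fold higher in the irradiated library and none was that much lower. The values are RNA counts, and no protein was measured. Of the 4 genes for core proteins of box C/D particles, 2 were at least 1.2-fold higher and none lower, with a median log2 ratio of 0.27. In each list the genes named had the highest and the lowest ratios at a mean of at least 20 CPM, and any other gene past 1.2-fold was named after its values were seen. Nop58, which binds the snoRNA backbone with its partner Nop56, went from 221 to 281 CPM, and Fbl, the methyltransferase fibrillarin, from 263 to 323 CPM. Nop56 had 173 and 198 CPM and Snu13, which recognises the box C/D fold, 372 and 441 CPM. Of the 4 genes for core proteins of box H/ACA particles, 3 were higher and none lower, with a median of 0.43. Nhp2 stood at 222 and 349 CPM, Gar1 at 110 and 162, Nop10 at 520 and 638, and the pseudouridine synthase Dkc1 at 161 and 175 CPM.

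Of 12 genes of snoRNA particle assembly, 5 were higher and none lower, with a median of 0.21. Nolc1, a nucleolar chaperone of snoRNA particles, had 122 and 184 CPM, and Znhit3, part of the box C/D assembly machinery, 31.8 and 47.1 CPM. The others past 1.2-fold were the ATPases Ruvbl1 and Ruvbl2 (113 and 140, and 79.4 and 113 CPM) and the adaptor Nufip1 (32.9 and 40.4 CPM). The lowest ratios were those of Tgs1, the cap methylase, with 64.1 and 59.2 CPM, and Pih1d1, with 59.8 and 57.0 CPM. Of 16 measured genes of RNA polymerase I and the nucleolus, 7 were higher and none lower, with a median of 0.23. Rrp9 had 26.2 and 36.4 CPM and Wdr43 98.5 and 132 CPM, while Ubtf had 96.5 and 95.8 and Rrn3 22.9 and 22.6 CPM. Beside these lists, all 9032 genes had a median of -0.06, with 21.1% higher and 32.3% lower. The mix of classes and that of phases differed between the libraries. The part of either in the list values was not tested.

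Genes of nonsense-mediated decay, the route that removes many host RNAs, went both ways, with 3 of 16 higher, 3 lower and a median of -0.02. For this list and the 3 that follow, the shares over all genes were again 21.1% higher and 32.3% lower. The exon junction proteins Magoh (206 and 274 CPM) and Rbm8a (150.5 and 186 CPM) had the highest ratios, and Eif4a3 of the same complex had 112 and 136 CPM. Smg6, the endonuclease of the pathway (63.0 and 45.2 CPM), and the kinase Smg1 (42.5 and 31.7 CPM) were lower, as was the helicase Dhx34 (6.73 and 4.799 CPM). Of 11 regulators of 5′ TOP translation, 2 were higher and 2 lower, with a median of 0.11. Eif4e, the cap-binding protein, had 87.4 and 121 CPM and its inhibitor Eif4ebp1 90.7 and 112 CPM, while Eif4ebp2 had 72.6 and 66.0 and Rps6kb1 40.0 and 39.7 CPM. The 2 that were lower were the mTOR inhibitor Tsc1 (13.6 and 9.61 CPM) and the mTOR partner Rptor (14.9 and 11.7 CPM).

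The 83 measured genes with ribosomal protein symbols, whose starts were not examined here, had a median log2 ratio of -0.04, with 7 higher and 6 lower. Rps24 had 10384 and 7843 CPM and Rps7 5614 and 4493 CPM. The highest ratios belonged to Rps27l, a paralog known as a p53 target (519 and 812 CPM), and Rps19bp1, a protein that binds Rps19 (50.8 and 68.0 CPM), neither of which is a standard ribosomal subunit. Together, ribosomal protein genes took 36.6% of control and 35.3% of irradiated UMIs. Of 8 measured glucocorticoid response genes, listed because Gas5 RNA can bind the glucocorticoid receptor, 2 were higher and 5 lower, with a median of -0.47. Tsc22d3 had 76.6 and 31.7 CPM and Dusp1 225 and 96.2 CPM, while Cebpd had 21.1 and 43.6 and Fkbp5 30.41 and 34.35 CPM. Per1 (22.8 and 11.3 CPM), Klf9 (27.7 and 19.5 CPM) and the receptor gene Nr3c1 (51.8 and 38.2 CPM) were the others lower, and Sgk1 (5.42 and 7.27 CPM) the other higher.

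**Figure D5:**
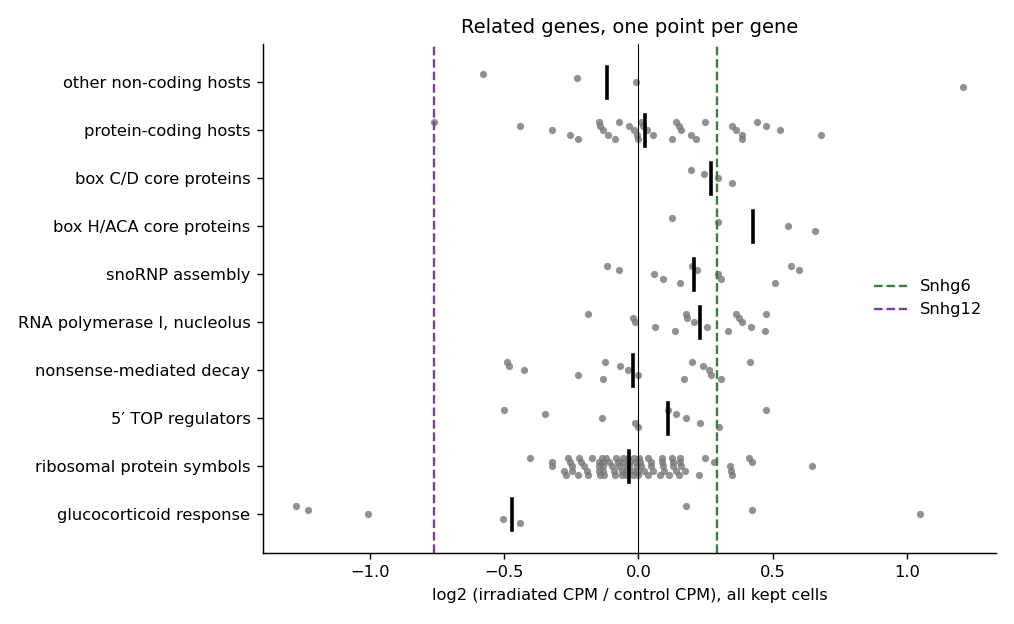
log2 ratio of irradiated over control CPM over all kept cells for the genes of each related list at a mean of at least 5 CPM, 1 point per gene, with the list median as a black bar. Dashed lines mark Snhg6 (0.29) and Snhg12 (-0.76). All points of the box C/D and box H/ACA core proteins lie above 0, and among the protein-coding hosts Eif4a2 lies at the value of Snhg12.

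Other genes that host small RNAs gave no common direction. Of 15 other non-coding hosts listed, 7 had a row and 4 reached a mean of 5 CPM, with a median log2 ratio of -0.12. Of these 4, 1 was higher and 1 lower, beside 21.1% and 32.3% of all genes tested. Epb41l4aos had 98.1 and 83.7 CPM over all cells (log2 ratio -0.23). Within classes it went the other way in part, with 132 and 164 CPM in HSC-like cells (log2 ratio 0.31, 0.17 to 0.45) and 51.7 and 62.1 CPM in neutrophil-primed-like cells (log2 ratio 0.26, 0.07 to 0.46). Snhg9, Mir17hg and Snhg20 were named after their values were seen. Snhg9, the host of Snora78, had 10.8 and 24.9 CPM, 2.31-fold higher in irradiated cells. Its log2 ratio was 1.15 in HSC-like, 0.68 in lymphoid-primed-like, 0.87 in megakaryocyte-primed-like and 0.85 in neutrophil-primed-like cells, with every interval above 0. All 435 bases of Snhg9 lie within the ribosomal protein gene Rps2 on the other strand, and without stated strand use its reads cannot be assigned with certainty. Mir17hg, which carries microRNAs, had 8.84 and 5.92 CPM, and Snhg20 13.01 and 12.93 CPM. Snhg18 had 48 UMIs in the control and 2 in the irradiated library, 36 of the control UMIs in HSC-like cells. Snhg11 had 3 and 18 UMIs and Snhg10 660 and 764.

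Among 34 measured protein-coding genes that host snoRNAs in their introns, 8 were higher and 3 lower, with a median log2 ratio of 0.03. Over all genes 21.1% were higher and 32.3% lower. Rcc1, the nucleotide exchange factor of Ran (32.1 and 51.5 CPM, log2 ratio 0.68), and Pabpc4, a poly(A)-binding protein (43.5 and 62.7 CPM, 0.53), had the highest ratios. Eif4a2, an RNA helicase of translation initiation, had the lowest at 155 and 91.6 CPM (-0.76, -0.79 to -0.73), followed by Tpt1 at 5680 and 4182 CPM (-0.44) and Rpl17 at 5096 and 4081 CPM (-0.32). Hspa8 and Hspa9, heat shock chaperones, Ncl, the nucleolar protein nucleolin, Ppan, Tcp1 and Nop58 made up the rest of those higher. The ratio of Eif4a2 and that of Snhg12 were the same to 2 decimals.

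Likeness of pattern was measured as Pearson's r of log2(CPM + 1) over 17 sums, each of 1 cluster in 1 library, among 5294 genes at a mean of at least 20 CPM. These sums share libraries and depth, and r is a description. The genes most like Snhg12 were Zfp652, a zinc finger repressor (r = 0.97, 28.1 and 16.9 CPM), Clk1, a kinase of splicing factors (0.92, 198 and 95.6 CPM), and Eif4a2 (0.91). Among those most like Snhg6 were Ifi35, an interferon-induced gene (0.88, 37.1 and 51.4 CPM), and Rplp2, a ribosomal stalk protein (0.85, 3961 and 4231 CPM). The sum of the hosts was most like Sqstm1 (0.90), Ifi44 (0.89), Picalm, Dtx3l and Rps27rt. At a coarser clustering 1 of 3 genes for Snhg12, 2 of 3 for Snhg6 and 1 of 5 for the sum stayed on these lists. Between the hosts r was 0.03 over all 17 sums, 0.45 over the 9 control sums and 0.78 over the 8 irradiated sums.

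Genes next to the hosts went either way. Beside Snhg12, Trnau1ap, a factor of selenocysteine incorporation whose 3′ end lies 739 bases away on the other strand, had 48.5 and 45.8 CPM (log2 ratio -0.08, -0.13 to -0.03). Rab42, 5238 bases away on the other side, had 95 and 54 UMIs, a lower level as for Snhg12 (log2 ratio -1.05, -1.56 to -0.56). Within 50 kb of Snhg12 5 of 9 genes reached a mean of 5 CPM. Of these, Rcc1 (log2 ratio 0.68) and Taf12, a subunit of the general factor TFIID (29.1 and 43.3 CPM, 0.57), were higher. Gmeb1 (log2 ratio -0.23, -0.31 to -0.14), Phactr4 (-0.22, -0.29 to -0.15) and Trnau1ap lay below 0, as Snhg12 did, but within 1.2-fold. Next to Snhg6, Mcmdc2 had 144 and 209 UMIs (log2 ratio 0.30, -0.01 to 0.62) and Tcf24 5 and 0 UMIs. Sgk3, a kinase, was the only gene within 50 kb of Snhg6 at a mean of 5 CPM, with 56.7 and 38.5 CPM (log2 ratio -0.56).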

How the data were processed

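The authors deposited raw UMI counts per gene and barcode from 10x Genomics 3′ libraries of sorted cells, 1 control and 1 irradiated. Cell Ranger 2.1.1 and mm10 are named in the submitters' processing notes, while the matrix headers give software 3.1.0, and that difference is unresolved. How reads of overlapping genes were counted is not given in the sources used here. Barcodes with at least 1000 UMIs, 500 genes and at most 10% mitochondrial UMIs were kept, which removed 496 of 7686 and 468 of 5596. Scrublet marked 2 and 16 cells, under 0.5% of the cells, so doublet removal has not worked, and leaving out the 6% highest scores was an alternative. Cells were clustered with scanpy 1.11.5 (2000 variable genes, 30 components, 15 neighbours from each library, Leiden resolution 1). Clusters took a name with at least 3 markers among their 25 leading genes, a rule set after seeing the data. Levels are summed counts per 1000000 UMIs with exact Poisson intervals, and ratios carry Clopper-Pearson 95% intervals conditional on the total. With 1 library per group no test was made, and cells are not replicates. The ratio and interval code was tested on counts simulated with Poisson error alone. That check cannot speak to spread between cells or between libraries. Phase was called on cells thinned to 5000 UMIs, leaving out 66 control and 59 irradiated cells. The members, gene lists, thresholds and naming of genes (in each list the 2 highest and 2 lowest ratios at a mean of at least 20 CPM, the nearest gene on each side within 50 kb, and the 3 or 5 most alike genes) were chosen with earlier results of these data known. Sequences came from GENCODE M21 transcripts and RefSeq promoter windows on GRCm38. Of the most alike genes, 1 is not reported here.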

Additional observations from a re-analysis of the deposited data

How the results depend on the processing

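No paired analysis was possible because each group has 1 library. Over 9 alternatives the all-cell log2 ratio stayed above 0 for Snhg6 (0.23 to 0.36) and below 0 for Snhg12 (-0.82 to -0.46). Thinning to 5000 UMIs gave 0.25 for Snhg6, -0.17 for the sum and 0 hosts higher. Totals without ribosomal and mitochondrial genes gave 0.23, -0.82 for Snhg12, -0.18 for the sum and 0 hosts higher. Cells with 15000 to 25000 UMIs gave 0.36, -0.46, 0.029 for the sum and 2 host and class pairs higher in place of 4, with 2 classes left to compare. A limit of 5% mitochondrial UMIs gave -0.72 for Snhg12 and -0.088 for the sum. At the control class mix, the sum (0.14, 4 classes) was 0.10 when thinned and 0.098 with 30 neighbours drawn from all cells (3 classes). It was -0.046 with each cell named by its own markers (6 classes) and 0.061 with both unnamed clusters as classes. Pairs at least 1.2-fold lower numbered 5 with each cell named by its own markers, where 6 classes were compared, against 2 over 4 classes. At resolution 0.5 they numbered 1, over 4 classes that were not the same ones. No cluster was named megakaryocyte-primed there, and an erythroid-primed one of 206 control and 952 irradiated cells entered instead. These counts thus cover unlike sets of pairs. Where fewer, more or other classes or fewer cells entered, the construction of the alternative set what could be counted. The cause of the moves was otherwise not tested. Within the 4 classes, the signs were the same under the alternatives run except Snhg12 in neutrophil-primed-like cells, 0.02 with cells weighted equally. Classes under 100 cells in a library under an alternative gave no value there. Nor did a class that the alternative did not form, as the megakaryocyte-primed-like class at resolution 0.5. With a mean of at least 20 CPM, the list medians moved most for other non-coding hosts (-0.23) and 5′ TOP regulators (0.20). At a mean of at least 5 CPM, 1 of 3 most alike genes for Snhg12, 2 of 3 for Snhg6 and 3 of 5 for the sum were shared. Centring on the median log2 ratio shifted values by 0.02. T/NK-like cells were few, and neither host's difference could be resolved there.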

Other observations

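The lymphoid-primed-like class joined 3 clusters, and their intervals for Snhg6 overlapped. In cluster 3, led by Wfdc17 and Ccl3, it stood at 115 CPM in the control and 172 CPM in the irradiated library, a log2 ratio of 0.58 (0.44 to 0.72). In cluster 5, led by Wfdc17 and Dntt, it stood at 121 and 170 CPM (0.49, 0.26 to 0.72). In cluster 7, led by Dntt and Cox6a2, it stood at 112 and 151 CPM (0.43, 0.30 to 0.56). Snhg12 in the same clusters stood at 117 and 88.8 CPM, at 135 and 109 CPM, and at 92.1 and 77.0 CPM. The 172 CPM of cluster 3 was the highest level of Snhg6 among the clusters with at least 50 cells in a library, and its interval overlapped that of cluster 5.

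Within single cells thinned to 5000 UMIs, the hosts were nearly unrelated, with Pearson's r of 0.02 over 7122 control cells and 0.02 over 5053 irradiated cells, and in such sparse counts that is no finding. The variance of Snhg12 over cells was 1.13 and 1.15 times its mean and that of Snhg6 1.05 and 1.08 times, in control and irradiated cells.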
